A study of Mus musculus with 14 samples.

Results

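The nuclear-encoded subunits of the mitochondrial respiratory chain were examined as 58 genes listed by complex, 32 of complex I, 4 of complex II, 9 of complex III, 7 of complex IV and 6 of complex V. The list names subunits by their known place in the chain and uses no measured value, but it was chosen with earlier results of these data known. It is not complete, and other nuclear subunits are described further on. All 58 were found by gene symbol among the 56941 genes of the count table, and all 58 were among the 19145 genes that entered the tests, those whose mean count reached 10. The lowest raw count of any member in any mouse was 1404, for Ndufs8, so that counting error was small beside the spread between mice.

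RNA came from aortic valve leaflets of wild-type C57BL/6J male mice, entered at 8 weeks of age, and every group received a hypercholesterolemic Breslow Western Diet. Ctrl (n = 4 mice) had the diet alone. AngII (n = 4) had angiotensin II, the vasoconstrictor peptide of the renin-angiotensin system, delivered at 1000 ng/kg/min from a subcutaneous osmotic pump over 28 days. AngII+LY (n = 4) had the same infusion and injections of 3 mg/kg LY272015, which blocks the serotonin receptor HTR2B, and LY (n = 2) had LY272015 without the infusion. The injections were described once as given at alternate days and once as given on a pair of days each week, and the AngII and AngII+LY mice were labelled as sampled 48 h after the pumps were taken out, although the methods give pump removal for a part of those groups. The treatment field of 4 dosed mice carried a neighbouring compound number, and the groups were therefore taken from the sample titles. Only 2 LY mice were analysed here. The labels give 4 mice per group and the methods a larger number, and no direction rests on that group alone.

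Complexes I to IV pass electrons from NADH and succinate to oxygen, complexes I, III and IV pump protons across the inner mitochondrial membrane as they do so, and complex V, the ATP synthase, lets the protons return to make ATP. Complex I, III, IV and V are built from both nuclear and mitochondrial gene products, while complex II is entirely nuclear and also serves in the citric acid cycle. Cardiac muscle is among the tissues richest in these subunits, whereas valve leaflets are thin sheets of interstitial and endothelial cells attached to muscle at their base.

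Total counts per mouse ranged from 20990655 in AngII mouse 4 to 73128220 in AngII mouse 2. Markers of the valve interstitial cell took 0.483 to 1.93% of counts and 7 endothelial markers 0.118 to 0.305%. A list of 23 cardiomyocyte genes, among them myosin and troponin genes, took 1.27 to 6.8% of counts, so that transcripts of heart muscle were counted in every library. Skeletal muscle markers stayed at or below 0.0576%, with Myog at 0 in all 14 mice. Levels below are counts scaled by the TMM method to the mean library, named normalized counts, and levels compared between genes are TPM values (transcript abundance corrected for length), computed from the counts and the length of the Ensembl canonical transcript.

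Per transcript length, the members spanned a wide range in the Ctrl valves, and the small subunits of complexes IV and V led. Cox6c, a small subunit of cytochrome c oxidase, stood first at 4880 ± 659 TPM (SD, n = 4). Cox4i1, the regulatory subunit of the same enzyme, followed at 3593 ± 687.9 TPM, and Atp5mc1, a gene for the proton-carrying c ring of ATP synthase, at 3415 ± 1188 TPM. The order of these 2 neighbours is not set by the data, since their difference was smaller than either SD. In complex III the highest member was Uqcr10 at 2385 ± 516.3 TPM and the lowest was the core protein Uqcrc2 at 159.9 ± 58.84 TPM. In complex I the range ran from Ndufa2 at 1673 ± 141.2 TPM to Ndufb2 at 42.02 ± 4.375 TPM, the lowest of all 58. The canonical transcript of Ndufb2 is 4389 bases long, and that length enters the value. Complex II ran from the membrane anchor Sdhd at 584.9 ± 145.6 TPM to the other anchor Sdhc at 190.4 ± 53.15 TPM. The lowest member of complex IV, Cox5a at 995.3 ± 323.1 TPM, lay above every complex II member, and the lowest of complex V was the stalk subunit Atp5po at 236.8 ± 73.93 TPM. The catalytic β subunit of ATP synthase, Atp5f1b, reached 2307 ± 1210 TPM, the widest SD of the members named here, with Ctrl mouse 2 high and Ctrl mice 1 and 4 low.

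Summed over the members, the share of counts was 2.14 to 4.13% for the Ctrl mice and 2.86 to 3.08% for the LY pair. It was 1.83 to 2.91% for the AngII mice and 3.18 to 5.12% for the AngII+LY mice, which lay above all AngII mice but not above all Ctrl mice. Leaflets were sequenced as bulk tissue, in which fewer cells of a type and less RNA per cell cannot be told apart. Gene by gene the order of the mice varied, as the map of all members shows.

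**Figure D1:**
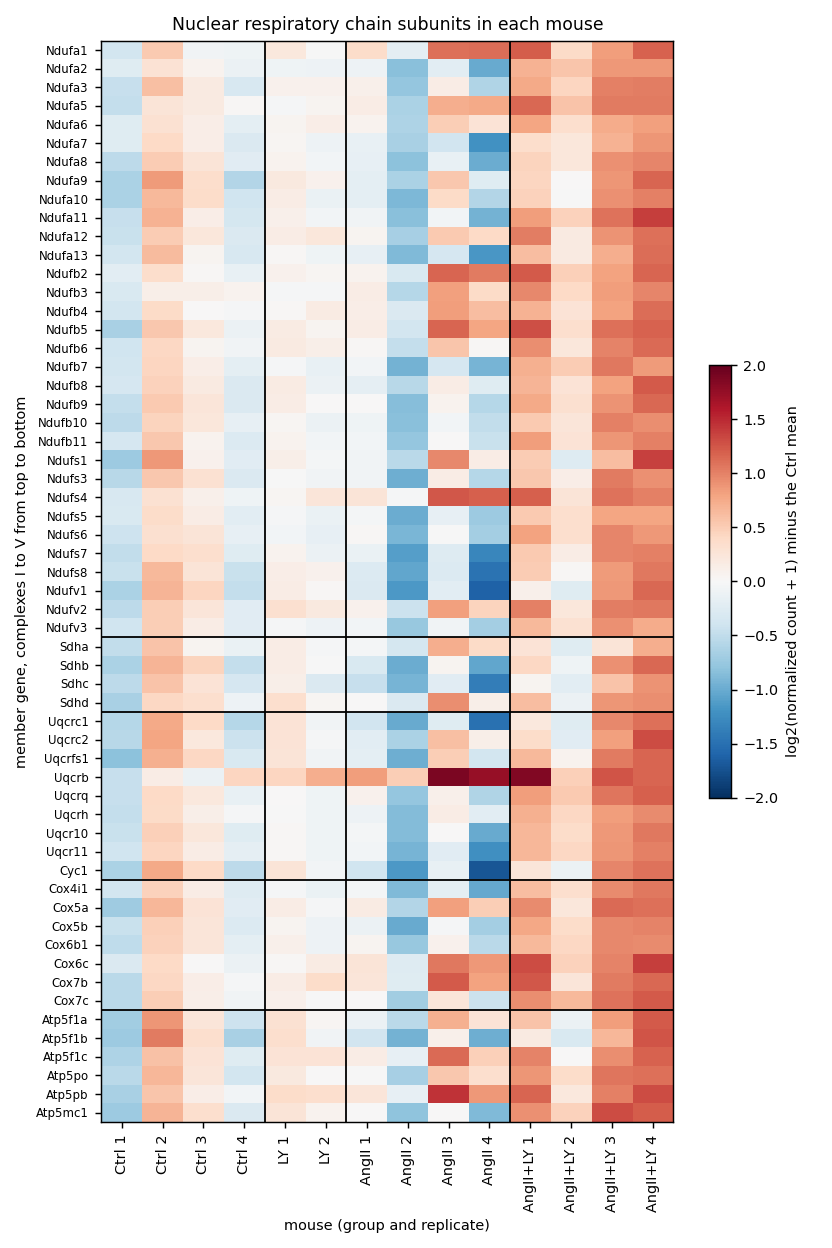
Each row is a member gene, ordered by complex I to V from the top, and each column is a mouse, with colour giving log2(normalized count + 1) minus the mean of the 4 Ctrl mice. The AngII+LY columns are mostly above the Ctrl mean, AngII mouse 2 is mostly below it, and Uqcrb stands out in AngII mice 3 and 4 and AngII+LY mouse 1.

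The comparison of AngII+LY with AngII asks what the HTR2B antagonist changed during angiotensin II infusion. In it 57 of the 58 members were higher, with a median log2 fold change of 1.0 against -0.02 over all genes tested, of which 49.1% were higher. By edgeR's quasi-likelihood test with Benjamini-Hochberg adjustment over all 19145 genes, none of the members passed an adjusted p of 0.05 (0% of all genes did), and their adjusted p ran from 0.0568 to 0.939. At an unadjusted p under 0.05 there were 40 members, all of them higher, where 10.1% of all genes were higher at that level. In 28 members the lowest AngII+LY value exceeded the highest AngII value, which was so for 5.45% of all genes. The DESeq2 Wald test on the same counts called 32 members higher (5.3% of all genes), and the newer quasi-likelihood method of edgeR called 11 (0.413%). Leaving out AngII mouse 1 gave 23 members called, all higher, where 2.04% of all genes were called higher. Leaving out the 3 mice with the most mitochondrially encoded RNA, described further on, gave 58 of 58 higher with a median of 1.18, 52 at an unadjusted p under 0.05 (8.18% of all genes were higher at that level) and no member called.

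**Figure D2:**
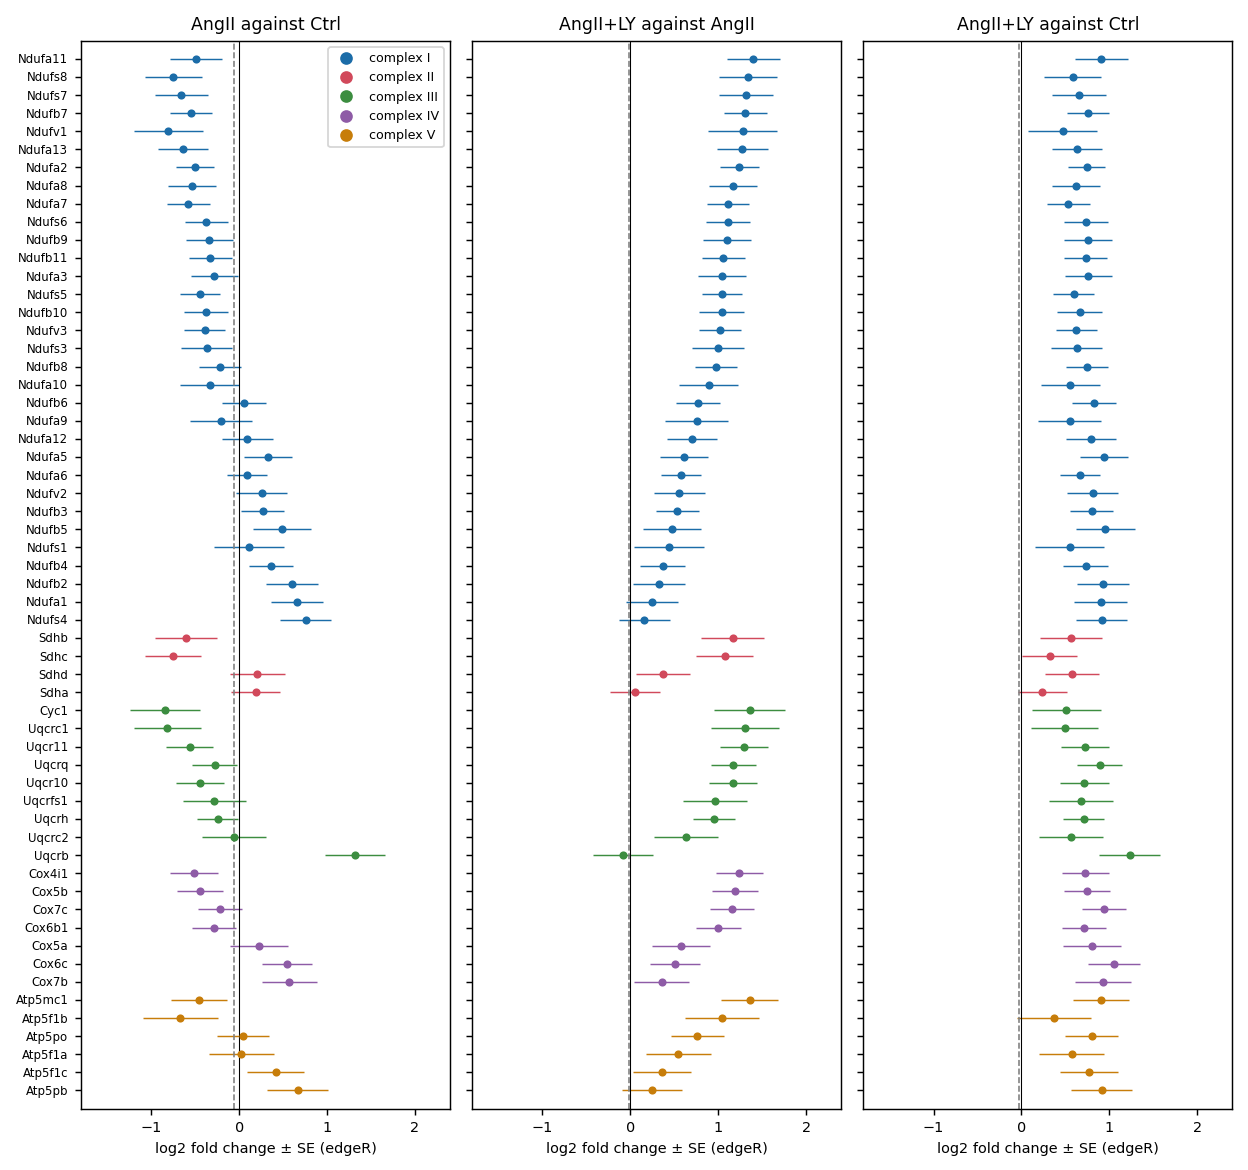
Points give the log2 fold change of each member from edgeR with its standard error, coloured by complex, in 3 comparisons, and the dashed line is the median of all genes tested. In AngII+LY against AngII 57 of 58 points lie above 0, in AngII+LY against Ctrl all 58 do, and in AngII against Ctrl 22 do, with Uqcrb farthest to the right.

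Complex I showed the pattern in all 4 of its parts. Its 32 members were all higher in AngII+LY than in AngII, with a median log2 fold change of 1.01. At an unadjusted p under 0.05 there were 24 (10.1% of all genes were higher), and 16 were without overlap (5.45%). The smallest p belonged to Ndufa2, an accessory subunit of the module that binds NADH. Its normalized counts were 23299, 14040, 21453 and 12418 in the AngII mice and 40486, 36655, 45440 and 45698 in the AngII+LY mice. The lowest AngII+LY mouse thus lay well above the highest AngII mouse. The log2 fold change was 1.24 ± 0.22 (SE), a 2.36-fold difference, with an adjusted p of 0.0568. An exact two-sided permutation test of the log2 levels gave p = 0.0286, the smallest that 4 mice against 4 allow. Over the alternative fits the adjusted p of Ndufa2 ran from 1.39e-05 with DESeq2 to 0.321.

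Of the 10 members in the NADH-binding module, all were higher, with a median log2 fold change of 0.86. At an unadjusted p under 0.05 there were 7 (10.1% of all genes were higher). Ndufv1, which holds the flavin that first accepts electrons from NADH, had 19951, 11024, 21189 and 7948 normalized counts in AngII and 26276, 20726, 44569 and 54061 in AngII+LY. AngII+LY mouse 2 lay just below AngII mouse 3, so the groups overlapped, and the log2 fold change was 1.28 ± 0.40 with an adjusted p of 0.0929. Ndufs1, the largest iron-sulfur subunit, differed less, at 0.44 ± 0.39 (adjusted p = 0.55), with the single highest AngII value, 13310 in mouse 3, above the lowest 3 AngII+LY values. Ndufa7 and Ndufs6 were both higher by 1.11 (adjusted p = 0.0588 each), Ndufv3 by 1.02 (adjusted p = 0.0588), and Ndufa12, Ndufa6 and Ndufv2 by 0.70, 0.57 and 0.56 with adjusted p of 0.171, 0.161 and 0.272. At the other end stood Ndufs4, a subunit needed for a stable NADH-binding module. Its normalized counts were 11620, 9596, 22943 and 22262 in AngII and 22330, 11595, 20561 and 19495 in AngII+LY. AngII mice 3 and 4 matched the AngII+LY mice, and the log2 fold change was 0.16 ± 0.29 with an adjusted p of 0.798, the largest of complex I.

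The quinone-reducing module, which hands electrons to ubiquinone, had 5 members, all higher, with a median of 1.0. At an unadjusted p under 0.05 there were 4 (10.1% of all genes were higher). Ndufs8, which carries a pair of iron-sulfur clusters, had 10769, 6281, 10765 and 4646 normalized counts in AngII against 18520, 13214, 23364 and 26914 in AngII+LY. These groups did not overlap, and the log2 fold change was 1.34 ± 0.33 with an adjusted p of 0.0599. Ndufs7, another iron-sulfur subunit, was higher by 1.31 (adjusted p = 0.0588) and Ndufs3 by 1.0 (adjusted p = 0.0835). Ndufa9 and Ndufa5 were higher by 0.75 and 0.61, with overlap of the groups and adjusted p of 0.227 and 0.209.

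The proximal part of the membrane arm had 7 members with a median of 1.05, of which 5 did not overlap (5.45% of all genes). Ndufa11, an accessory subunit of this arm, had 14423, 8456, 14493 and 7825 normalized counts in AngII and 26901, 20802, 32158 and 39397 in AngII+LY. Its log2 fold change of 1.40 ± 0.30, or 2.64-fold, was the largest of the 58, with an adjusted p of 0.0588. Ndufs5 was higher by 1.04 ± 0.23 (adjusted p = 0.0588), from 5828 to 11215 normalized counts in AngII to 14489 to 19998 in AngII+LY, again without overlap. Ndufa13, Ndufa8, Ndufa3 and Ndufa10 were higher by 1.27, 1.16, 1.05 and 0.89, and Ndufa1 by 0.24 (adjusted p = 0.675), with AngII mice 3 and 4 at 36873 and 37218 among the AngII+LY values.

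The distal part of the membrane arm, the end that carries the farthest proton channels, had 10 members with a median of 0.87. Ndufb7 (chr8:84293300-84298255 in GRCm39) led it, with 23551, 12746, 19455 and 12815 normalized counts in AngII and 40017, 34656, 50852 and 44021 in AngII+LY, and no overlap. The log2 fold change was 1.31 ± 0.24 with an adjusted p of 0.0568. Ndufb9, Ndufb11, Ndufb10 and Ndufb8 were higher by 1.10, 1.06, 1.04 and 0.97 without overlap, and their adjusted p ran from 0.0588 to 0.0612. Ndufb6 and Ndufb3 were higher by 0.77 and 0.53 with overlap. Ndufb5, Ndufb4 and Ndufb2 differed by 0.47, 0.37 and 0.33, with adjusted p of 0.426, 0.42 and 0.551.

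Since 57 members were higher together in this comparison, the windows around their transcription starts were searched for short motifs of factors known to act on respiratory genes. The windows ran from 250 bases before to 50 bases after the start of the canonical transcript in GRCm39, and both strands were read. The letters GCGCANGCG, part of the motif of nuclear respiratory factor NRF1, were in 9 of 58 member windows (15.5%; Ndufa8, Ndufa13, Ndufb4, Ndufb11 and Ndufs5 of complex I, Sdha and Sdhd of complex II, Uqcr11 and Uqcrc1 of complex III) and in 8.08% of the windows of 21770 protein-coding genes. The letters CCGGAAG of the ETS family, to which GABPA belongs, were in 8 member windows (13.8%, against 10.3% of all), AAGATGGCG of YY1 in 1 (1.72% against 1.34%) and TCAAGGTCA of the estrogen-related receptors in 1 (1.72% against 0.473%). GGGCGG, the GC box, was in 44.8% of member windows and 42.5% of all, and TATAAA in 10.3% and 13.2%. These shares were not tested, and some matches overlap matches of another motif. NRF1 matches that lay before the start and clear of annotated exons are shown for the 3 members that had one, all of complex I, with the match in capitals. They are read 5′ to 3′ on the strand of the gene at chr16:37474893-37474941 (minus), chr4:123612049-123612097 (minus) and chrX:20484471-20484519 (minus), and the match begins 106, 75 and 42 bases before the start.
Ndufb4: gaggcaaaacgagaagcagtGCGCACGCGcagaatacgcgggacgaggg
Ndufs5: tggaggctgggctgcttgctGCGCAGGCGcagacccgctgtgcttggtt
Ndufb11: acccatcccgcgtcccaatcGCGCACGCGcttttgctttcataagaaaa
Of these 3, Ndufs5 and Ndufb11 were among the members without overlap between AngII+LY and AngII, and Ndufb4 was not. Members with no NRF1 match, such as Ndufa2 and Ndufb7, were without overlap as well, and a link to the motif was not tested.

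Complex II, the succinate dehydrogenase, was split. Sdhc (chr1:170954732-170978223) had 11107, 8000, 13007 and 5860 normalized counts in AngII and 15761, 13130, 22533 and 28392 in AngII+LY, which did not overlap. Its log2 fold change was 1.07 ± 0.32 with an adjusted p of 0.0863. The iron-sulfur subunit Sdhb was higher by 1.16 ± 0.36 (adjusted p = 0.0902), with AngII mouse 3 at 32945 above the lowest AngII+LY mouse at 30055. Sdha, the catalytic flavoprotein, had 25237, 20287, 42967 and 33664 normalized counts in AngII and 31167, 21909, 30925 and 42650 in AngII+LY. The groups lay over each other, with a log2 fold change of 0.05 ± 0.28 and an adjusted p of 0.939, the largest of all members. Sdhd lay between, at 0.37 ± 0.31 (adjusted p = 0.517). The median of complex II was 0.72, with 2 of 4 members higher at an unadjusted p under 0.05 (10.1% of all genes).

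Complex III, the cytochrome bc1 complex, had a median log2 fold change of 1.17 over its 9 members and also held the member with the opposite sign. Uqcr11 (chr10:80236542-80242676), a small accessory subunit, had 36915, 20146, 32660 and 16342 normalized counts in AngII and 60820, 50780, 70556 and 77116 in AngII+LY. No AngII+LY mouse came near the AngII mice, and the log2 fold change was 1.29 ± 0.27 with an adjusted p of 0.0588. Uqcrq and Uqcr10, small subunits as well, were each higher by 1.17 (adjusted p = 0.0588) and Uqcrh by 0.95 (adjusted p = 0.0612), all 3 without overlap. The electron-carrying subunits were higher too. Cyc1, the cytochrome c1, had 20609, 12137, 24478 and 8239 normalized counts in AngII and 31995, 24892, 53378 and 57367 in AngII+LY. The groups were separated by a small margin, and the log2 fold change was 1.36 ± 0.40 with an adjusted p of 0.0847. The core protein Uqcrc1 was higher by 1.31 ± 0.39 (adjusted p = 0.0842), the Rieske iron-sulfur protein Uqcrfs1 by 0.96 ± 0.36 (adjusted p = 0.145, with overlap) and the core protein Uqcrc2 by 0.63 ± 0.36 (adjusted p = 0.323). Uqcrb, a subunit at the ubiquinone-binding site (gene at chr13:67048655-67053443), had 54042, 42957, 112196 and 101548 normalized counts in AngII and 109654, 42102, 72319 and 68425 in AngII+LY. AngII mice 3 and 4 and AngII+LY mouse 1 stood far above the rest, and the log2 fold change was -0.09 ± 0.34 with an adjusted p of 0.915.

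In complex IV, the cytochrome c oxidase, all 7 members were higher, with a median of 1.0. Cox7c (chr13:86189246-86195023) had 15646, 9582, 18276 and 11571 normalized counts in AngII and 29662, 24288, 32784 and 36092 in AngII+LY. The groups did not overlap, and the log2 fold change was 1.16 ± 0.25 with an adjusted p of 0.0588. A transcript of Pitpna holds a near-identical copy of Cox7c, and 42.8% of the joint counts of the 2 genes fell on Pitpna. That share takes in all counts of Pitpna, its own included. The level of Cox7c is uncertain where reads could be split, by an amount that the share does not measure. Cox4i1 was higher by 1.24 ± 0.27 and Cox5b by 1.19 ± 0.26, each with an adjusted p of 0.0588, and Cox6b1 by 1.0 (adjusted p = 0.0662), all without overlap. Cox4i1 had 35024 to 69144 normalized counts in AngII and 89839 to 148526 in AngII+LY. Cox5a, Cox6c and Cox7b differed by 0.58, 0.51 and 0.36, with overlap and adjusted p of 0.315, 0.316 and 0.538.

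The 6 members of complex V had a median of 0.66, close to that of complex II. Of these, 3 were higher at an unadjusted p under 0.05 (10.1% of all genes) and 1 was without overlap (5.45%). That member was Atp5mc1 (chr11:95959678-95966757), with 51583, 29261, 51523 and 27712 normalized counts in AngII and 96735, 70134, 125837 and 117943 in AngII+LY. Its log2 fold change was 1.36 ± 0.32 with an adjusted p of 0.0588, and 19.5% of its joint counts fell on a near-identical pseudogene. The catalytic Atp5f1b was higher by 1.04 ± 0.43 (adjusted p = 0.168) and Atp5f1a, the other subunit of the catalytic head, by 0.55 ± 0.37 (adjusted p = 0.409). Atp5po, of the stalk that links the head to the membrane, was higher by 0.76 ± 0.30 (adjusted p = 0.156), Atp5f1c, the rotating shaft, by 0.36 and the stator subunit Atp5pb by 0.25 ± 0.35 (adjusted p = 0.724). In Atp5pb the highest value of all was in AngII mouse 3, at 74191.

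**Figure D3:**
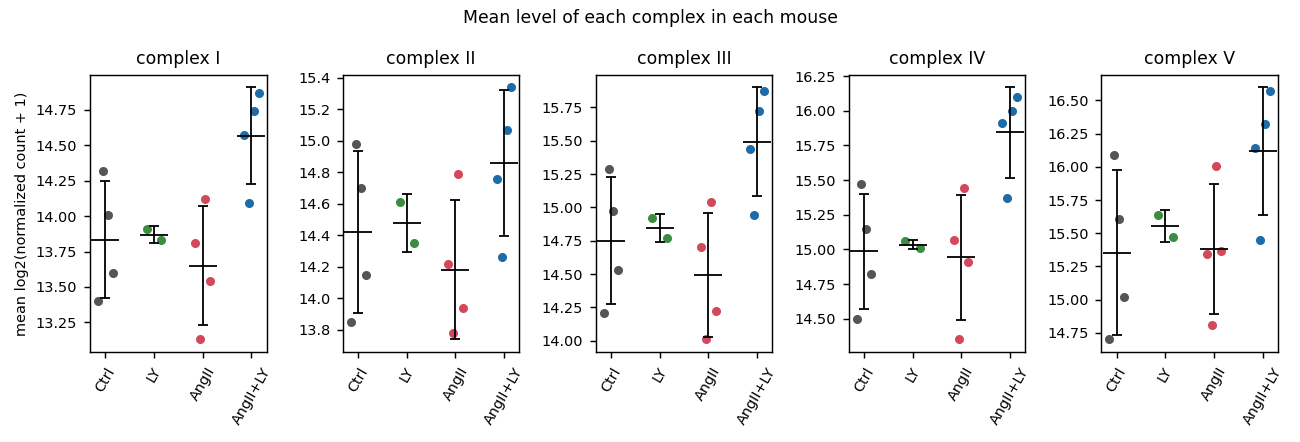
Each point is a mouse, plotted as the mean log2(normalized count + 1) over the members of a complex, with the group mean and SD as bars. AngII+LY is the highest group in all 5 complexes, AngII+LY mouse 2 is its lowest mouse throughout, and the Ctrl mice spread as widely as the AngII mice.

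Against the Ctrl mice, which had neither the infusion nor the antagonist, all 58 members were higher in AngII+LY, where 48.1% of all genes were. The median log2 fold change was 0.73 against -0.02 over all genes, and the range ran from 0.24 for Sdha to 1.23 for Uqcrb. No member was called by edgeR (0% of all genes), with adjusted p from 0.242 to 0.81. There were 43 members at an unadjusted p under 0.05, all higher (4.89% of all genes), and 12 without overlap (3.27%), while DESeq2 called 8 higher (0.867%). Cox7c had the smallest p, with 10667, 21872, 16825 and 14720 normalized counts in Ctrl and 24288 to 36092 in AngII+LY. The groups did not overlap, and the log2 fold change was 0.94 ± 0.25 with an adjusted p of 0.242. Cox6c was higher by 1.05 ± 0.29 (adjusted p = 0.251) and Uqcrb by 1.23 ± 0.34 (adjusted p = 0.256), both also without overlap. By complex the medians were 0.73 for I, 0.44 for II, 0.71 for III, 0.80 for IV and 0.79 for V, with 0 of 4 complex II members and 7 of 7 complex IV members at an unadjusted p under 0.05. This comparison shares its AngII+LY mice with the preceding one, and the values of both stand side by side here without a test of their likeness.

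Angiotensin II alone against Ctrl gave a mixed picture. Of the members 22 were higher and 36 lower (47.2% of all genes were higher), with a median log2 fold change of -0.28 against -0.06 over all genes. That median was -0.10 without Ctrl mouse 2, -0.14 without AngII mouse 2, -0.43 without Ctrl mouse 1 and -0.44 without AngII mouse 3. None was called by edgeR (0% of all genes), 3 were higher at an unadjusted p under 0.05 (13.4% of all genes) and 7 lower (11.7%). With the cardiomyocyte covariate described further on, 9 members were higher (14.3% of all genes) and 20 lower (13%) at that level, with a median of -0.25. DESeq2 called 2 members higher, Uqcrb and Ndufs4 (9.15% of all genes). Uqcrb was the 1 member without overlap (7.46%), with 22098, 33519, 28135 and 40925 normalized counts in Ctrl against 42957 to 112196 in AngII. The lowest AngII mouse lay only just above the highest Ctrl mouse. Its log2 fold change was 1.32 ± 0.35 with an adjusted p of 0.0607, and over the alternative fits the adjusted p ran from 0.0028 to 0.519. Ndufs4 was higher by 0.76 ± 0.29 (adjusted p = 0.133) and Ndufa1 by 0.66 ± 0.30 (adjusted p = 0.189). In both, AngII mice 1 and 2 lay within the Ctrl range while AngII mice 3 and 4 lay above every Ctrl mouse. At the other end Cyc1 was lower by 0.84 on the log2 scale (log2 fold change -0.84 ± 0.40, adjusted p = 0.201), with Ctrl at 17484, 45585, 35743 and 18748 and AngII at 8239 to 24478. Ndufa7, with a log2 fold change of -0.58 ± 0.24, had the smallest p among the members that were lower (adjusted p = 0.157), and Uqcrc1 and Ndufv1 had log2 fold changes of -0.82 and -0.81. The median of complex V was 0.03 and that of complex I -0.33.

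Markers of several cell types differed in the same comparison. Of 9 brown adipocyte markers, genes of a fat cell rich in mitochondria, 8 were lower in AngII than in Ctrl, 4 at an unadjusted p under 0.05. Of all genes 11.7% were lower at that level. The median log2 fold change of the 9 markers was -1.49. The 9 markers took 0.153 to 0.187% of counts in Ctrl and 0.0795 to 0.13% in AngII. Fabp4 and Cox7a1 weighed most in that share, with Ctrl means of 40592 and 35468 normalized counts against 3844 for Ucp1. Cox7a1 is also the muscle form of a cytochrome c oxidase subunit, so that the share does not stand for brown fat alone. The defining marker Ucp1, named after its values were seen, had 5010, 2417, 5206 and 2743 normalized counts in Ctrl against 307, 530, 1037 and 205 in AngII, with no overlap. Of 8 macrophage markers 6 were lower, with a median of -1.11 and 5 at that level, and all 6 smooth muscle markers were lower, with a median of -2.63 and 5 at that level. In mean log2(normalized count + 1) the smooth muscle markers stood at 15.1, 13.36, 10.87 and 10.48 in Ctrl mice 1 to 4. The AngII mice ran from 10.55 to 12, so that only Ctrl mice 1 and 2 lay above the AngII range. The 23 cardiomyocyte markers had a median of -0.21, 10 higher and 13 lower. The part of these markers in the values of the members was not tested. The cardiomyocyte covariate comes from the same libraries, so it cannot tell the number of cells from the RNA per cell.

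In LY against Ctrl the values of most members differed by far less than their SE. The median log2 fold change was -0.01, no member had an unadjusted p under 0.05 (0.627% of all genes were higher and 0.763% lower at that level) and none was called by edgeR (0%) or DESeq2. The range ran from -0.14 for Sdhc to 0.55 for Uqcrb, and the SE of Uqcrb was 0.41. Uqcrb was also the only member in which both LY mice, at 41151 and 50029, lay above the 4 Ctrl mice (5.64% of all genes did), the first of them by a narrow margin. With 2 mice against 4 an exact permutation test gave p = 0.133 for Uqcrb. Groups of this size have so few relabellings that the test cannot reach 0.05, and nothing is drawn from it. Atp5pb and Ndufv2 followed at 0.29 and 0.21.

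The difference of the antagonist's effect with and without angiotensin II was tested as an interaction. Its median over the members was 1.04 on the log2 scale against 0.04 over all genes, with 56 of 58 above 0. The median was 0.46 with the cardiomyocyte covariate, where 20 members were above 0 at an unadjusted p under 0.05 (4.73% of all genes), and 0.68 with the GC correction and replicate block. No member was called by edgeR (0%), where the smallest adjusted p was 0.295, while 29 were above 0 at an unadjusted p under 0.05 (5.66% of all genes) and DESeq2 called 2, Ndufa2 and Ndufb7 (0.454%). Ndufa2 had an interaction of 1.34 ± 0.35 and Ndufb7 one of 1.43 ± 0.39.

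The GC content of the transcripts moved with these differences. Across the 58 members GC content ran from 40.8% for Ndufs4 to 62.8% for Ndufa13. Spearman's rho between GC content and log2 fold change was -0.70 in AngII against Ctrl and 0.70 in AngII+LY against AngII, beside -0.55 and 0.44 over the 19043 tested genes with a GC value. These are correlations across genes, which share the same mice and are not independent replicates, and both comparisons share the AngII mice. With a GC correction in each library the values for the members fell to 0.04 and 0.03. The median of AngII against Ctrl was then -0.01 and the SD over members 0.36 in place of 0.48. The median of AngII+LY against AngII was 0.87 with 58 of 58 higher, 43 at an unadjusted p under 0.05 (8.53% of all genes were higher at that level) and none called. Uqcrb, with 41.6% GC, was then at 0.40 in AngII+LY against AngII and at 0.80 in AngII against Ctrl.

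**Figure D4:**
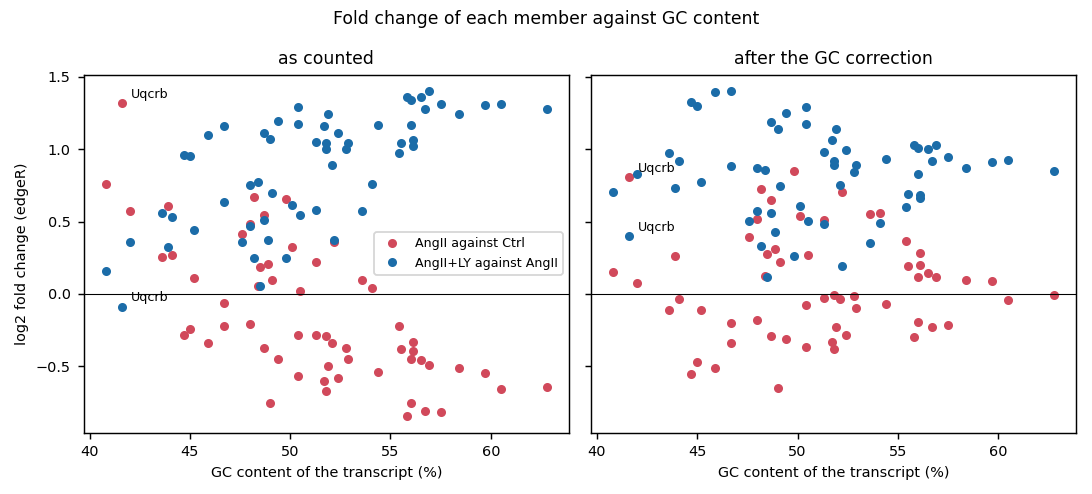
Each point is a member, with the GC content of its transcript in percent and its log2 fold change in 2 comparisons, as counted (left) and after the GC correction (right). On the left the AngII against Ctrl points slope down and the AngII+LY against AngII points slope up, with rho of -0.70 and 0.70, and on the right the slopes are near 0 while the second comparison stays above 0.

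Cardiomyocyte markers moved with the members. The 23 markers summed to 1.35 to 5.08% of counts in the Ctrl mice and 2.39 to 2.92% in the LY mice. They summed to 1.27 to 2.52% in the AngII mice and 2.96 to 6.8% in the AngII+LY mice, and all 23 passed the count minimum. Single mice weighed in some markers. Myl7, named after its values were seen, had 155866 normalized counts in AngII+LY mouse 4 against 3761 to 5628 in its group. In Ctrl mouse 2 it had 208649 against 6355 to 8135. Nppa had 141584 and 21710 in these mice, against 2534 to 5853 and 1242 to 2420. Both enter the sums and the mean used below, and the cause was not tested. In AngII+LY against AngII all 23 were higher with a median log2 fold change of 1.36, 15 at an unadjusted p under 0.05 and 7 without overlap. Of all genes 10.1% were higher at that level and 5.45% were higher without overlap. Over the 14 libraries, which enter both measures, Pearson's r between a member and the mean log2 level of these markers ran from 0.45 for Uqcrb to 0.95 for Ndufb8, with a median of 0.85 and 40 members above 0.8. With that mean as a covariate in the fit, the median of AngII+LY against AngII was 0.40 with 41 of 58 higher. There were then 25 members higher and 2 lower at an unadjusted p under 0.05, where 6.06% and 7.08% of all genes were. The 2 lower ones were Sdha at -0.56 and Ndufs1 at -0.54, while Ndufa2 stood at 0.95 and Ndufb7 at 0.94. By complex the medians under the covariate were 0.44 for I, 0.05 for II, 0.52 for III, 0.52 for IV and -0.17 for V. Against Ctrl the covariate left a median of 0.24, with 1 member higher and 1 lower at an unadjusted p under 0.05 (2.64% and 3.79% of all genes).

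Markers of other cell types also differed in level. All 10 valve interstitial markers were lower in AngII+LY than in AngII, with a median log2 fold change of -1.01 and 7 at an unadjusted p under 0.05. They took 0.483 to 0.905% of counts in AngII+LY against 1.21 to 1.82% in AngII. Of all genes 10.1% were higher at that level, and the share lower is not given here. The 7 endothelial markers had a median of -0.03, with 1 lower at that level, and the 5 erythroid markers 0.53. The 9 brown adipocyte markers had a median of 0.09, with 3 higher at that level, and the 8 macrophage markers 0.43 with 2. The 6 smooth muscle markers were all higher with a median of 1.69, 2 at that level, and the 5 skeletal muscle markers that passed the count minimum had 1.27, 1 at that level. In mean log2(normalized count + 1) the smooth muscle markers stood at 11.16, 13.55, 11.15 and 13.87 in AngII+LY mice 1 to 4. The AngII mice ran from 10.55 to 12, so that AngII+LY mice 1 and 3 lay within the AngII range. The part of any of these other lists in the values of the members was not tested.

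The 13 subunits encoded in mitochondrial DNA followed another course. They took 3.36 to 6.64% of counts in the Ctrl mice and 7.59 to 8.63% in the LY mice. The range was 8.57 to 21.8% for AngII and 8.58 to 17.5% for AngII+LY, with AngII mice 3 and 4 at 21.8 and 20.5% and AngII+LY mouse 1 at 17.5%. All 13 were higher in AngII than in Ctrl, with a median log2 fold change of 1.70, and in AngII+LY against AngII 9 of 13 were lower with a median of -0.28. None of the 13 was called by edgeR in either comparison, but neither was any other gene (0% of all genes), so this does not set them apart. Their share of counts did not overlap between Ctrl, at most 6.64%, and AngII, at least 8.57%. By gene, the Ctrl and AngII ranges overlapped for mt-Nd2, mt-Nd6 and mt-Atp6 only. The rest were higher in AngII without overlap, as were 7.46% of all genes. Among the nuclear members Uqcrb followed the 13 subunits most closely. Over 14 libraries the log2 level of Uqcrb and the mean log2 level of the 13 subunits had a Pearson's r of 0.98 and a Spearman's rho of 0.96. Without the 2 libraries farthest from the median r was 0.97, and for deviations from the group means it was 0.96. Against the cardiomyocyte mean the same gene had r = 0.45 and rho = 0.39, and r = 0.26 without the 2 farthest libraries. Uqcrb was chosen here after its values were seen, as the member with the highest r, so that no test was made, and both measures come from the same libraries with their depth and base composition. Of the other members 6 had an r above 0.8 with the mitochondrially encoded subunits, Ndufs4 (0.90), Ndufa1 (0.85), Ndufb2 and Cox7b (0.84 each), Atp5pb (0.83) and Cox6c (0.81), and the median over members was 0.25. Near-identical pseudogenes took 1.54% of the joint counts of Uqcrb.

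**Figure D5:**
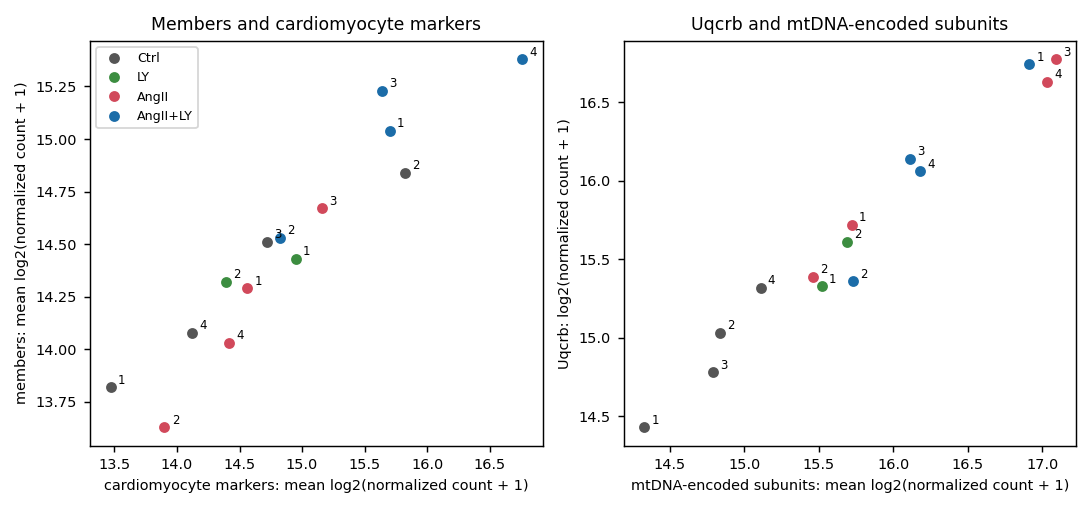
Each point is a mouse, numbered by replicate and coloured by group, with mean log2(normalized count + 1) of the 58 members against the 23 cardiomyocyte markers (left) and log2(normalized count + 1) of Uqcrb against the mean of the 13 mitochondrially encoded subunits (right). On the left AngII+LY mice 1, 3 and 4 and Ctrl mouse 2 lie at the upper end while AngII+LY mouse 2 lies among the other groups, and on the right AngII mice 3 and 4 and AngII+LY mouse 1 form the upper end.

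Cytochrome c oxidase also has subunits with a muscle form and a ubiquitous form, which lie outside the 58. The muscle forms Cox6a2, Cox7a1 and Cox8b were higher in AngII+LY than in AngII by 1.34, 1.19 and 1.25. The ubiquitous forms Cox6a1, Cox7a2 and Cox8a were higher by 0.56, 0.87 and 0.85. All 6 were without overlap (5.45% of all genes) and none was called by edgeR (0%), with adjusted p from 0.0588 to 0.094. Per transcript length the ratio of Cox6a2 to Cox6a1 was 1.09 to 5.32 in Ctrl and 1.81 to 4.84 in AngII, beside 3.82 to 6.78 in AngII+LY. The ratio of Cox8b to Cox8a was 0.289 to 0.568 in Ctrl and 0.341 to 0.723 in AngII, beside 0.656 to 0.851 in AngII+LY, and that of Cox7a1 to Cox7a2 was 1.83 to 2.73, 1.42 to 2.55 and 2.04 to 2.77. The ranges of AngII and AngII+LY overlapped in all 3 ratios.

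Genes around the chain were read from lists drawn up with earlier results of these data known. In AngII+LY against AngII the other 22 nuclear subunits had a median log2 fold change of 0.55, with 11 higher at an unadjusted p under 0.05 and 10 without overlap, led by the ATP synthase subunits Atp5f1e at 1.12 and Atp5mf at 1.21 (adjusted p = 0.0588 each). Of all genes 10.1% were higher at that level and 5.45% were higher without overlap. Of 43 tested assembly factors 37 were higher, with a median of 0.54, 18 higher and 1 lower at that level. They were led by the complex I assembly factor Ndufaf8 at 1.32 (adjusted p = 0.0568) and the complex III assembly factor Uqcc2 at 0.93 (adjusted p = 0.0588). Citric acid cycle genes had a median of 0.72, with 10 of 17 higher at that level, such as Idh2 at 1.40 (adjusted p = 0.0963). Fatty acid oxidation genes had a median of 0.73, with 8 of 16 higher and 1 lower, such as Etfb at 1.17 (adjusted p = 0.0588). Mitochondrial carriers and membrane proteins had a median of 0.54, with 7 of 15 higher, such as the prohibitin Phb1 at 1.32 (adjusted p = 0.0588). The 4 rare isoforms that passed the count minimum had a median of 0.32, with 1 higher, Ndufa4l2 at 1.09 (adjusted p = 0.108).

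The 14 regulators of mitochondrial genes had a median of 0.20, with 3 higher at an unadjusted p under 0.05 (10.1% of all genes). Esrra, an estrogen-related receptor, had 1505, 1154, 1739 and 599 normalized counts in AngII and 1788, 1855, 2345 and 4367 in AngII+LY. The groups did not overlap, though the gap was small, and the log2 fold change was 1.05 ± 0.39 with an adjusted p of 0.14. The coactivator Ppargc1a differed by 0.33 ± 0.43 (adjusted p = 0.698), Nrf1 by 0.03 ± 0.19 (adjusted p = 0.945), Tfam, which packages mitochondrial DNA, by -0.21 ± 0.28 (adjusted p = 0.712), and Gabpa by -0.47 ± 0.23 (adjusted p = 0.239). For these 4 genes the AngII and AngII+LY mice overlapped.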

How the data were processed

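Bulk RNA-seq of mouse aortic valve leaflets gave 14 libraries. The table deposited by the authors holds whole-number counts per Ensembl gene, made per the labels and the study's methods with FastQC, HISAT2 and featureCounts on GRCm39; the annotation release is not given in the sources used here. Low even counts (35471 values from 2 to 10) outnumbered low odd ones (23260 from 1 to 9), so totals may exceed the number of fragments; the cause was not tested. Symbols, canonical transcript lengths and GC content came from GENCODE vM39 on GRCm39 (56323 of 56941 IDs matched). TPM values were computed here.

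One edgeR 4.0.16 quasi-likelihood fit (glmQLFit with its defaults, TMM, genes whose mean count reached 10) held all 4 groups and gave 5 contrasts. A gene was called at an adjusted p under 0.05 with an absolute log2 fold change above 0.5, and SEs were derived from the F statistic. Alternatives were DESeq2 1.42.0, other scalings, filters and sample sets, a replicate block, a GC correction (loess, span 0.3) and a covariate of the mean log2(normalized count + 1) of 23 cardiomyocyte genes. The script was tested on simulated data, with a pass rule set at a spread below that of these libraries (common dispersion 0.353). That rule does not show how many changes would be found at the spread of these data. The members and lists were chosen with earlier results of these data known. All members could be named. Those given in full were, in AngII+LY against AngII, the members of smallest p in each complex, the one of largest p, any opposite in sign to the median and a list of core subunits; in the comparisons with Ctrl, the extremes of log2 fold change and the smallest p; for TPM, the highest and lowest of each complex; and of other lists up to 3 genes by smallest p, with all muscle and ubiquitous isoforms and 5 regulators. Libraries of a group differed beyond sampling noise, and totals ranged from 20990655 to 73128220 counts. Replicate numbers did not pair the mice (same-number correlations from -0.13 to 0.09).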

Additional observations from a re-analysis of the deposited data

Results flagged for a closer look

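Ndufv2 in AngII+LY mouse 2 stood apart from the other 3 mice of its group, at 14.64 on the log2(normalized count + 1) scale against 15.41 to 15.46, a gap of 0.939 of the group's whole range. This was the only 1 of 111 groups of 4 examined, over the means of the complexes and 31 named members, in which a single mouse was that far from the rest, and chance gives about 1 in 20.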

How the results depend on the processing

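Each count of called members and each median was recomputed under 26 alternatives, except that the fit of only the groups compared gives no interaction. DESeq2 called 2 members in AngII against Ctrl, 32 in AngII+LY against AngII, 8 in AngII+LY against Ctrl and 2 for the interaction, and the newer quasi-likelihood (legacy = FALSE, added after the data were seen) called 11 in AngII+LY against AngII. Leaving out 1 mouse gave 0 to 1 called members in AngII against Ctrl (Uqcrb without Ctrl replicate 4, AngII replicate 1 or AngII replicate 2), 0 to 23 in AngII+LY against AngII (23 without AngII replicate 1) and 0 in the other 3. The medians then ran from -0.44 to -0.10, from 0.86 to 1.15, from 0.61 to 0.90, from -0.17 to 0.22 for LY and from 0.84 to 1.21 for the interaction. The cardiomyocyte covariate moved the medians to 0.40 in AngII+LY against AngII, 0.24 against Ctrl and 0.46 for the interaction. Total counts without TMM put the median of all genes at -0.28 in AngII against Ctrl and -0.27 in AngII+LY against Ctrl, and the members at -0.52 and 0.48. The GC correction put the median of all genes at 0.13 in AngII+LY against Ctrl. Replicate block: with the replicate number as a block no member was called in any comparison, and the medians were -0.31, 1.01, 0.72, 0.11 and 0.96 (interaction, 0.68 with the GC correction as well); the numbers did not pair the mice. The planned legacy = TRUE alternative is the default of the installed edgeR, so it is the fit reported.

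Under the cardiomyocyte covariate 17 of the 58 members were lower in AngII+LY against AngII and 15 in AngII+LY against Ctrl. Among the members described in full the reversed signs, with the cause not tested, were these. In AngII+LY against AngII under that covariate Ndufs4 was at -0.26, Sdha at -0.56, Cox7b at -0.19, Atp5pb at -0.45, Ndufs1 at -0.54, Cox5a at -0.11 and Atp5f1a at -0.34. Without AngII replicate 2 Ndufs4 was at -0.03 and Sdha at -0.10, and Sdha was at -0.03 without AngII replicate 1 and -0.13 without AngII+LY replicate 4 (range without 1 mouse -0.13 to 0.26). Uqcrb was at 0.40 with the GC correction, 0.45 with the GC correction and replicate block, 0.14, 0.07 and 0.13 without AngII replicate 3, AngII replicate 4 or AngII+LY replicate 2, and 0.35 without the libraries over 15% mitochondrially encoded subunits. In AngII+LY against Ctrl Sdha was at -0.01 with total counts and -0.35 under the covariate. In LY against Ctrl Sdhc was at 0.02 with the GC correction and replicate block, 0.08 without Ctrl replicate 2 and 0.04 without LY replicate 2.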
